A study of Mus musculus with 12 samples.

Results

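Target genes of the peroxisome proliferator-activated receptors (PPARs) were examined in hearts that had lost Sdhaf4, an assembly factor of succinate dehydrogenase (mitochondrial complex II). The genes chosen by name were Angptl4, Ucp2, Ucp3, Acot1, Acot2, Mlycd and Ehhadh, and 6 of these 7 had a row of that name among the 43686 rows of the deposited table. No row was named Acot2. Poly-A RNA of the ventricular wall had been sequenced from 6 littermate controls that carried floxed Sdhaf4 alleles but lacked Cre (Sdhaf4 fl/fl, WT) and from 6 mice with the same floxed alleles and Ckmm-Cre (Sdhaf4Ckmm, KO). The sample labels give strain C57BL/6 and an age of 2 months for both groups and call the mutants Sdhaf4-/-. The study itself gives the age differently in different places, in one as younger and in another as a choice of ages that includes this one. The muscle creatine kinase promoter drives this Cre in skeletal as well as cardiac muscle, and since the controls carry no Cre, the deletion and the presence of Cre cannot be told apart. Whether each library came from 1 mouse is not stated in the labels, so the p-values describe the spread between these libraries.

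PPARs are nuclear receptors that bind fatty acids and related lipids, pair with retinoid X receptors (RXRs) and switch on genes of lipid handling. In the heart, a tissue that draws most of its energy from fatty acids, their targets cover the release of fatty acids from lipoproteins, the entry of fatty acids into mitochondria and peroxisomes, their oxidation there, and the disposal of surplus acyl-CoA. The genes described here act at several of these steps: Angptl4 is a secreted inhibitor of lipoprotein lipase, Mlycd degrades malonyl-CoA and so relieves the block on carnitine palmitoyltransferase 1, Ehhadh is the bifunctional enzyme of peroxisomal beta-oxidation, Acot1 and Acot2 split acyl-CoA in the cytosol and the mitochondrial matrix, and Ucp2 and Ucp3 are carriers of the inner mitochondrial membrane.

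Sequence matters for a pair of these genes, because Acot1 and Acot2 are neighbouring near-copies. In the GENCODE annotation of GRCm38 the coding sequence of Acot1 has 1260 bases and that of Acot2 1362, and 1180 of 1239 aligned bases were identical (95.2%). Of all runs of 50 bases in the Acot1 coding sequence, 43.5% also occur in Acot2, and of runs of 100 bases 30.9%. The identity of Acot1 with Acot3 was 83.9%, with Acot5 83.8%, with Acot4 76.6% and with Acot6 75.3%. The first 150 coding bases of Acot1 (exon sequence, GRCm38 chr12:84009510-84009659, plus strand) are shown with the matching stretch of Acot2 (GRCm38 chr12:83988025-83988174, plus strand, from coding base 124), since a read that fits within a run of lower case cannot be assigned to either gene by its sequence. Capitals mark the 13 bases that differ.
Acot1: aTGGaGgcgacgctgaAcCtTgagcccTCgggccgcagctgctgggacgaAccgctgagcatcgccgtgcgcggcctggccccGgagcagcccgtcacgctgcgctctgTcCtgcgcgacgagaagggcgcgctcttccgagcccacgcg
Acot2: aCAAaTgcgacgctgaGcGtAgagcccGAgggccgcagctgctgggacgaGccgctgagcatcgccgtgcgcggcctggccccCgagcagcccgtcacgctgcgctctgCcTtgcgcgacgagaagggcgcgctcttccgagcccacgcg
How the counting treated reads that fit both genes is not stated, so the size of the Acot1 change is uncertain.

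Promoter windows from RefSeq (GRCm38.p6, 250 bases before to 50 after each gene's start) were matched for 6 of the 7 genes, all but Angptl4. PPAR and RXR bind as a pair to a direct repeat of AGGTCA with 1 base between the copies. The repeat AGGTCANAGGTCA, searched on both strands, was in none of the 6 windows and in 0.0396% of all 32851 promoter windows. A looser form, AGGNCANAGGNCA, was likewise in none of the 6 and in 0.381% of all windows. Such windows hold either form so rarely that its absence from these 6 does not show that the genes lack such an element elsewhere. The single element AGGTCA, which also lies inside the repeat, was found in the Ucp3 window alone, at positions -149 and -44 from the start on the plus strand, and 16.3% of all windows hold it. The 250 bases before the start are given for Ucp3 (GRCm38.p6 chr7:100472741-100472990, plus strand) and for its neighbour Ucp2 (GRCm38.p6 chr7:100493108-100493357, plus strand), because only the former carries the element, in capitals.
Ucp3: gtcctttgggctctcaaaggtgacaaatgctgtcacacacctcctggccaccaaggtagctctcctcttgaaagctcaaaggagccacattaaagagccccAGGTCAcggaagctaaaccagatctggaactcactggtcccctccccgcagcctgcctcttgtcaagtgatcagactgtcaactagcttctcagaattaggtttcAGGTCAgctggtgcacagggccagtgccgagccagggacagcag
Ucp2: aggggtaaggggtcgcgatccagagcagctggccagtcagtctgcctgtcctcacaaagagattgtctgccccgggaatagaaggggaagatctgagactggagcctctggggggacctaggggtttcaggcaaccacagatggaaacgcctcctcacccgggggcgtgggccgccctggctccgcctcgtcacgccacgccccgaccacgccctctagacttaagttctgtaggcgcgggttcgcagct

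The libraries held 23747014 to 27159228 counted reads in WT and 26542930 to 31393393 in KO. The targeted gene, Sdhaf4, had 10.5-fold fewer reads in KO hearts, on counts scaled to library size by the TMM method (CPM). One control stood apart, since WT replicate 6 had 14.3 CPM of Sdhaf4 against 24.1 to 30.3 CPM in the other WT libraries. Every KO library had 2.25 to 2.73 CPM. WT replicate 6 also held the lowest WT value of Angptl4, Ucp3, Mlycd and Ehhadh and the highest of Ucp2, but not the lowest of Acot1. The defining cardiomyocyte transcripts were abundant in every library, at a summed 53461 CPM or more. KO replicates 3 and 6 stood at the edges of the KO group for several of the genes below, and where leaving out either changed a call the value is given. Replicate numbers are the labels' own.

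KO hearts had lower mRNA levels of 5 of the 6 measured genes, Acot1, Ehhadh, Ucp3, Angptl4 and Mlycd, by 14.3-fold for Acot1 down to 1.77-fold for Mlycd. Ucp2 did not pass the test in either direction. Called by the quasi-likelihood test of edgeR with adjustment over the 17155 rows tested, below 0.05, 5 of 6 genes were lower and 0 higher, where 25.5% of all rows were lower, 25.6% higher and 51.1% either. Standard errors (SE) of fitted log2 fold changes are from the same model. By an unadjusted p under 0.05 Ucp2 was higher, and DESeq2 called it higher too (adjusted p = 0.0352). With an adjusted p under 0.005 and a fall of more than 1 on the log2 scale, 4 of 6 passed, against 4.87% of all rows, and 0 of 6 rose as far, against 5.36%. The call of Ucp3 by this stricter pair was not firm, since its adjusted p was above 0.005 in 9 of 12 fits that each left out 1 library (highest without KO replicate 4, edgeR adjusted p = 0.00944) and with no filter on low counts (0.00622), which left 3 genes. In 5 of 6 genes every KO library lay below every WT library, which 15.2% of all rows showed (30.1% did not overlap in either direction). The median log2 fold change of the 6 genes was -1.49, and that of all rows tested was 0.0022. In bulk tissue, fewer cells of a type and less RNA per cell cannot be told apart.

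**Figure D1:**
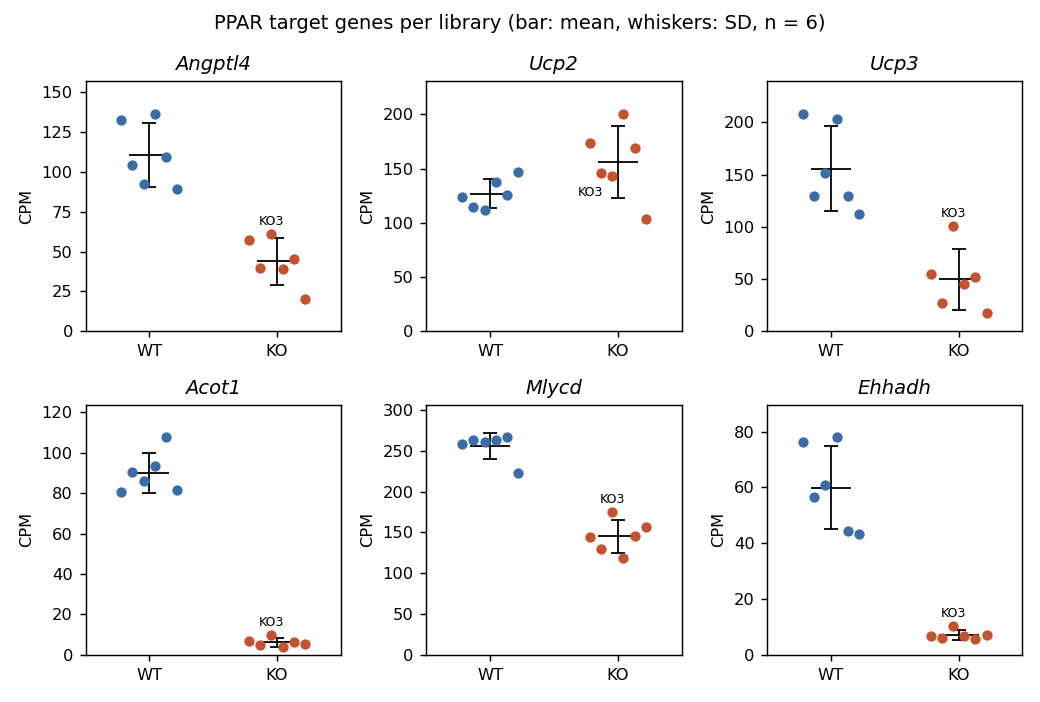
CPM of each measured PPAR target gene on linear axes that start at 0, with 1 point per library ordered by replicate number (blue WT, orange KO), the mean as a bar and the SD as whiskers, n = 6. The KO points lie below all WT points in every panel but that of Ucp2, and KO replicate 3, named in each panel, is the highest KO point in those 5 panels.

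Angptl4 (MGP_C57BL6NJ_G0023943, chromosome 17, 34953075 to 34960900, minus strand, C57BL/6NJ assembly coordinates, as for all rows of the deposited table) encodes the secreted inhibitor of lipoprotein lipase. In WT hearts its lowest, median and highest values were 89.1, 107 and 136 CPM, and in KO hearts 20.3, 42.4 and 61.3 CPM. All KO hearts were below all WT hearts, with KO replicate 6 far down and KO replicates 1 and 3 at the top. The mean was 111 ± 19.9 CPM in WT and 43.8 ± 14.7 in KO (SD, n = 6 each), a 2.52-fold lower level. The log2 fold change was -1.33 (SE 0.23, 95% interval -1.85 to -0.82, edgeR adjusted p = 0.000527).

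Acot1 (MGP_C57BL6NJ_G0020311, chromosome 12, 87108649 to 87124941, plus strand), the cytosolic acyl-CoA thioesterase, showed the largest fall of the 6 genes. WT hearts ranged from 80.4 over a median of 88.3 to 108 CPM, and KO hearts from 3.71 over 5.91 to 9.97 CPM. No KO library came near a WT library, and the KO values still rest on 108 to 301 reads each. The mean fell from 89.9 ± 10.0 to 6.26 ± 2.17 CPM (SD, n = 6 each), so that 6.99% of the WT level was left. The log2 fold change was -3.84 (SE 0.19, 95% interval -4.25 to -3.43, edgeR adjusted p = 6.02e-09), and 40 of the 17155 rows tested had a more negative one.

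Although no row carried the name Acot2, 3 unannotated loci on the same chromosome are described in the table as acyl-CoA thioesterase 2, and they are reported under their own names. Novel00414 (chromosome 12, 87074036 to 87093522, plus strand) was at 57.6, 61.3 and 73.1 CPM (lowest, median, highest) in WT and at 20.8, 28.0 and 40.4 CPM in KO. The groups did not overlap, and the log2 fold change was -1.11 (SE 0.14, edgeR adjusted p = 1.3e-05). Novel00415 (87079337 to 87080304, plus strand) lies inside the span of Novel00414 and fell from 73.5 ± 8.54 to 37.9 ± 7.01 CPM (SD, n = 6 each), a log2 fold change of -0.95 (SE 0.12, edgeR adjusted p = 8.51e-06). On the opposite strand of that stretch, Novel00481 (87079337 to 87080303) had 61 to 224 reads per library and a log2 fold change of -0.79 (SE 0.22, edgeR adjusted p = 0.00789), with overlapping groups. Since these spans overlap and it is not stated whether the counting used strand, their reads cannot be told apart.

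The reads of Acot1 and of the thioesterase 2 loci did not fall in proportion. For every read on Novel00414 there were 1.28 to 1.54 reads on Acot1 in the WT hearts and 0.179 to 0.247 in the KO hearts. The log2 ratio was 0.50 ± 0.10 in WT and -2.27 ± 0.16 in KO (SD, n = 6 each), a difference of -2.77 (two-sided exact permutation test over libraries, p = 0.00216, the smallest that 6 against 6 allow, and 0.00216 after adjustment over 3 ratios). The ratio to Novel00415 fell by a like amount, from between 1.08 and 1.38 to between 0.131 and 0.204. When the reads of Acot1, Novel00414 and Novel00415 were summed into 1 row, so that a read shifted among them stays inside the sum, the log2 fold change was -1.63 (SE 0.13, edgeR adjusted p = 1.96e-07). The ratios to these loci and the sum were chosen after the values had been seen.

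Ucp3 (MGP_C57BL6NJ_G0033052, chromosome 7, 107281446 to 107296852, plus strand) and Ucp2 (MGP_C57BL6NJ_G0033053, chromosome 7, 107303753 to 107312436, plus strand) are neighbouring genes for homologous carriers, of which Ucp3 is the form typical of muscle and Ucp2 is found in many tissues. Ucp3 was at 112, 140 and 208 CPM (lowest, median, highest) in WT and at 17.8, 48.6 and 101 CPM in KO. The highest KO value, in replicate 3, came close to the lowest WT value without reaching it, and the KO hearts spread 5.66-fold from lowest to highest. The mean was 156 ± 40.7 CPM in WT and 49.6 ± 28.9 in KO (SD, n = 6 each), 3.13-fold lower. The log2 fold change was -1.65 (SE 0.37, 95% interval -2.46 to -0.83, edgeR adjusted p = 0.00325). The span of Ucp3 overlaps a minus-strand row without a gene name that took 22 to 100 reads per library, few beside the 493 to 5102 reads of Ucp3.

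Ucp2 was at 112, 125 and 147 CPM (lowest, median, highest) in WT and at 103, 158 and 201 CPM in KO. The groups overlapped at both ends of the WT range, with KO replicate 6 below all WT hearts and KO replicates 1, 4 and 5 above all of them. The log2 fold change was 0.30 (SE 0.13, 95% interval 0.02 to 0.58, edgeR unadjusted p = 0.0397 and edgeR adjusted p = 0.0727). Without KO replicate 6 the edgeR log2 fold change was 0.39 with an adjusted p of 0.0024, so that the edgeR call depended on this library. The call also depended on the method, since DESeq2 called Ucp2 higher with all libraries kept (DESeq2 adjusted p = 0.0352).

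Relative to Ucp2 in the same library, Ucp3 was lower in KO hearts than in WT hearts. The WT hearts held 0.765 to 1.68 reads of Ucp3 for each read of Ucp2, and the KO hearts 0.172 to 0.704. The log2 ratio was 0.26 ± 0.41 in WT and -1.83 ± 0.74 in KO (SD, n = 6 each), and these groups did not overlap. The difference of -2.09 does not depend on how the libraries were scaled (two-sided exact permutation test, p = 0.00216, adjusted over 3 ratios 0.00216), and it ranged from -2.36 to -1.95 when single libraries were left out.

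**Figure D2:**
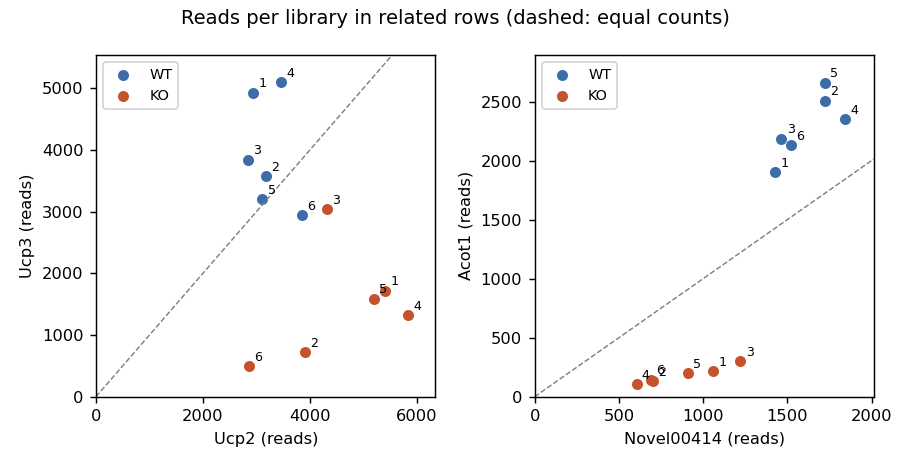
Raw reads per library for Ucp3 against Ucp2 (left) and for Acot1 against the unannotated locus Novel00414 (right), on linear axes that start at 0, with replicate numbers beside the points and a dashed line at equal counts. All KO points (orange) lie under the line in both panels, the WT points (blue) lie on either side of it for Ucp3 and Ucp2, and all WT points lie above it for Acot1 and Novel00414.

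Mlycd (MGP_C57BL6NJ_G0034674, chromosome 8, 126823996 to 126840301, plus strand), which encodes malonyl-CoA decarboxylase, changed least among the genes that fell. WT hearts were at 223, 262 and 266 CPM (lowest, median, highest) and KO hearts at 118, 145 and 175 CPM. Apart from WT replicate 6, which held the lowest WT value, the WT hearts were close together, and every KO heart lay below them. The mean fell from 256 ± 16.3 to 145 ± 19.8 CPM (SD, n = 6 each). The log2 fold change was -0.82 (SE 0.08, 95% interval -0.99 to -0.65, edgeR adjusted p = 2.5e-07).

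Ehhadh (MGP_C57BL6NJ_G0023078, chromosome 16, 19606476 to 19634629, minus strand), the peroxisomal bifunctional enzyme, was at 43.5, 58.8 and 78.0 CPM (lowest, median, highest) in WT and at 5.61, 6.77 and 10.4 CPM in KO. The groups were far apart, and the highest KO value again belonged to replicate 3. The mean fell 8.42-fold, from 60.0 ± 14.98 to 7.11 ± 1.68 CPM (SD, n = 6 each). The log2 fold change was -3.07 (SE 0.19, 95% interval -3.49 to -2.66, edgeR adjusted p = 4.04e-08). A row without a gene name that overlaps Ehhadh took at most 3 reads in any library.

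**Figure D3:**
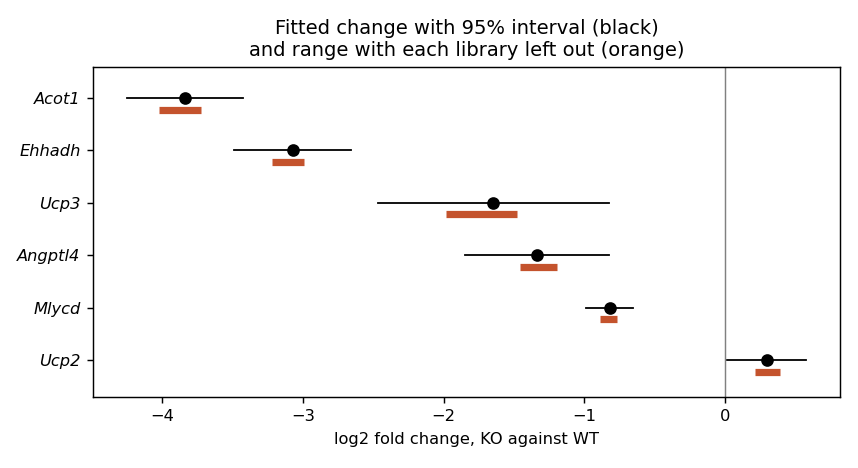
Log2 fold change of KO against WT for the 6 measured genes, with the fitted value as a point, its 95% interval in black and the range with each library left out in orange. The intervals of Acot1, Ehhadh, Ucp3, Angptl4 and Mlycd lie below 0, while that of Ucp2 runs from 0.02 to 0.58 before any adjustment for the number of rows tested.

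Levels of different genes were compared on the authors' FPKM scale. The gene length behind it was equal to the table's in 28.7% of rows examined and shorter otherwise. In both groups the order of genes therefore depends on the length used. By the table's lengths Ucp2 (3988 bases) is longer than Mlycd (2933 bases), yet its WT mean was 127 CPM against 256 CPM. With those lengths Mlycd would stand above Ucp2 in WT. In WT hearts Ucp2 (105 ± 12.1 FPKM), Mlycd (101 ± 5.32), Ucp3 (83.2 ± 21.1), Angptl4 (73.2 ± 12.6) and Acot1 (67.3 ± 6.76) followed each other with overlapping ranges of neighbours, and Ehhadh stood apart below them at 19.8 ± 4.83 FPKM (SD, n = 6 each). In KO hearts Ucp2 led at 130 ± 30.4 FPKM, and Mlycd followed at 57.2 ± 6.46 FPKM, clear of Ucp2. Angptl4 (29.1 ± 9.58 FPKM) lay below Mlycd in range, whereas Ucp3 (26.5 ± 14.9) overlapped both Angptl4 and, through KO replicate 3, Mlycd. The ranks of Ucp3 and Angptl4 were swapped between the groups, but their ranges overlapped in both. Clear of these, Acot1 (4.67 ± 1.53) and Ehhadh (2.35 ± 0.500) overlapped at the bottom (SD, n = 6 each).

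The genes were also compared for how they varied among hearts of the same genotype. The labels and headers name no batch, so no value within a batch could be given. After the genotype mean was removed from log2 CPM, 1 of 15 pairs passed a permutation test within genotype, namely Angptl4 with Ucp3, over 12 libraries. Its Pearson r was 0.90 (permutation p = 0.00058, adjusted over 15 pairs 0.0087) and its Spearman rho 0.83 (permutation p = 0.0027, adjusted 0.0405). Without KO replicates 3 and 6, the libraries farthest from the median of Angptl4, r was 0.74. The relation was present in both groups, with r = 0.86 over the 6 WT hearts and r = 0.90 over the 6 KO hearts. Acot1 and Mlycd had r = 0.82 and rho = 0.57 (permutation p of r 0.0112, adjusted 0.0843), and without KO replicates 3 and 4 r was 0.38.

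**Figure D4:**
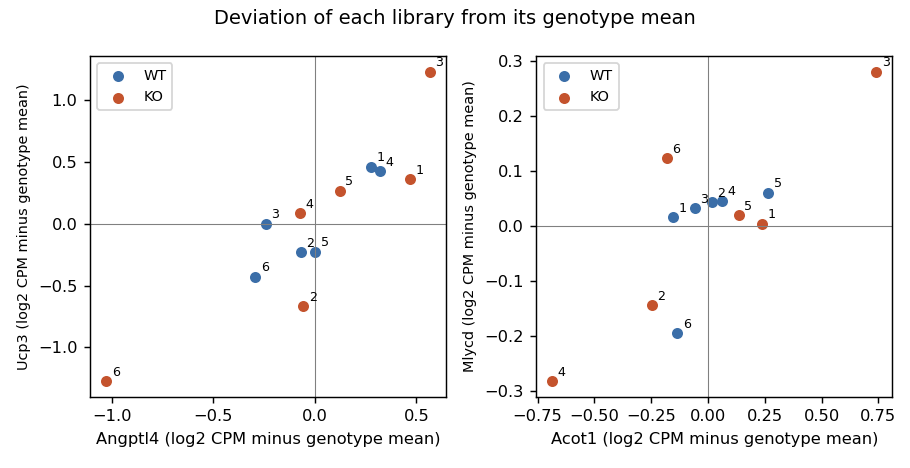
Deviation of each library from its genotype mean in log2 CPM, for Ucp3 against Angptl4 (left) and for Mlycd against Acot1 (right), with replicate numbers beside the points (blue WT, orange KO). The points for Angptl4 and Ucp3 follow a rising line in both genotypes (r = 0.90), with KO replicates 3 and 6 at its ends, whereas in the right panel KO replicates 3 and 4 lie at opposite ends.

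Over the same 12 libraries, the row whose deviations were most like those of each gene was sought among 11166 other rows with a mean of at least 5 CPM, as a description without a test. For Angptl4 these were Nop58, Cr1l and Hccs (Pearson r of 0.95, 0.94 and 0.93). For Ucp3 they were Mrpl3 (0.92), Gpam (0.91) and Angptl4 itself (0.90). Novel00414 stood first for Acot1 (0.96), followed by Slc40a1 (0.92) and an unnamed row. Novel00415 stood first for Mlycd (0.93), with Wipi2 and Stard7 next (both 0.93). Ehhadh was most like Tmem126a (0.90), Hmox1 (0.88) and an unnamed row, and Ucp2 most like Fndc1 (0.95), Mrc2 (0.94) and an unnamed row. The matrix gene Fndc1 and the collagen receptor gene Mrc2 were themselves higher in KO hearts, by 0.96 and 1.39 on the log2 scale (edgeR adjusted p = 0.00193 and 2.87e-07).

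Genes that work beside the described ones were read from lists written from general knowledge, but with earlier results of these data known. Around Angptl4, 8 of 10 genes of the lipoprotein lipase list were tested, of which 1 was higher and 7 were lower, with a median log2 fold change of -0.62. Lpl, the lipase itself, fell from 6578 ± 323 to 2855 ± 603 CPM (SD, n = 6 each), a log2 fold change of -1.20 (edgeR adjusted p = 2.27e-07), and thus in the same direction as its inhibitor. Gpihbp1, which anchors the lipase on capillaries, was the gene that rose, by 0.65 (edgeR adjusted p = 1.27e-06). Pltp, a phospholipid transfer protein, and Vldlr, a lipoprotein receptor, had log2 fold changes of -1.48 and -0.90 (edgeR adjusted p = 1.86e-07 and 3.26e-06). The span of Pltp overlaps that of Ctsa, which makes its value uncertain.

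Of 14 other acyl-CoA thioesterase genes 9 were tested, with 3 higher, 3 lower and a median of 0.03 on the log2 scale. In the chromosome 12 family of Acot1, Acot3 fell by 1.96 on the log2 scale (edgeR adjusted p = 2.73e-06), at a low level of 2.32 ± 0.654 CPM in WT and 0.590 ± 0.104 in KO (SD, n = 6 each). Acot6 fell by 0.85 (edgeR adjusted p = 0.00015), Acot4 had a log2 fold change of -0.17 (edgeR adjusted p = 0.604), and Acot5 had at most 2 reads in a library and was not tested. Acot13 fell by 0.35, while Acot9 and Acot7 rose by 0.40 and 0.20 and Them4 by 0.32 (edgeR adjusted p of at most 0.031). The rows of Acot3, Acot4 and Acot7 overlap rows without a gene name.

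Around Mlycd, 11 of 12 genes of malonyl-CoA and of the carnitine shuttle were tested, and 4 were higher and 5 lower, with a median of -0.03. Acacb, which makes the malonyl-CoA that Mlycd removes, fell from 550 ± 23.99 to 319 ± 49.6 CPM (SD, n = 6 each), by 0.79 on the log2 scale (edgeR adjusted p = 1.21e-06). Its fitted change was therefore near the -0.82 of Mlycd, although the difference between them was not tested. Cpt1b, the muscle carnitine palmitoyltransferase that malonyl-CoA inhibits, had a log2 fold change of -0.72 (edgeR adjusted p = 0.000107), with a span that overlaps Chkb. Cpt2 and Crat fell by 1.12 and 0.71, and Cpt1a, Cpt1c and Prkaa2 rose by 0.19, 0.73 and 0.35. Crat overlaps Golga2 and Dolpp1.

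Peroxisomal oxidation, the pathway of Ehhadh, was represented by 22 of 23 listed genes, of which 15 were lower and 1 was higher, with a median of -0.39. None of the 22 fell as far as Ehhadh. Ech1, an auxiliary enzyme for unsaturated fatty acids, was nearest with a log2 fold change of -1.34 (edgeR adjusted p = 2.05e-08), and Eci2 and Phyh fell by 0.79 and 0.60. Acox3 rose by 0.21 (edgeR adjusted p = 0.0113).

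Among the mitochondrial carriers listed beside Ucp2 and Ucp3, 5 of 6 were tested, and 1 was higher and 1 lower. The adenine nucleotide carrier Slc25a5 rose by 0.71 and Slc25a27 fell by 0.49 on the log2 scale (edgeR adjusted p = 5.52e-07 and 0.006). Ucp1, the uncoupling protein of brown fat, had at most 1 read in a library.

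Among 36 further genes listed as PPAR targets, 31 were tested, of which 26 were lower, 1 was higher and 4 did not pass, with a median log2 fold change of -0.72. By the stricter pair of thresholds 11 of 31 were lower. Pdk4, the kinase that inhibits pyruvate dehydrogenase, fell from 5442 ± 632 to 1821 ± 847 CPM (SD, n = 6 each), with a log2 fold change of -1.58 (edgeR adjusted p = 0.000362), and Plin5, a lipid droplet protein, fell by 1.20 (edgeR adjusted p = 1.69e-08). Cpt1a was the gene that rose. Acot1 and Ehhadh had more negative log2 fold changes than any of these 31. In the RefSeq windows, 26 of these targets were matched, 0 held either form of the repeat and 6 held the single AGGTCA element. Of all genes with a window, 0.0481% held the strict repeat, 0.451% the looser form and 18.1% the single element. The difference from these shares was not tested, and the repeats are too rare for a count of 0 to be telling.

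**Figure D5:**
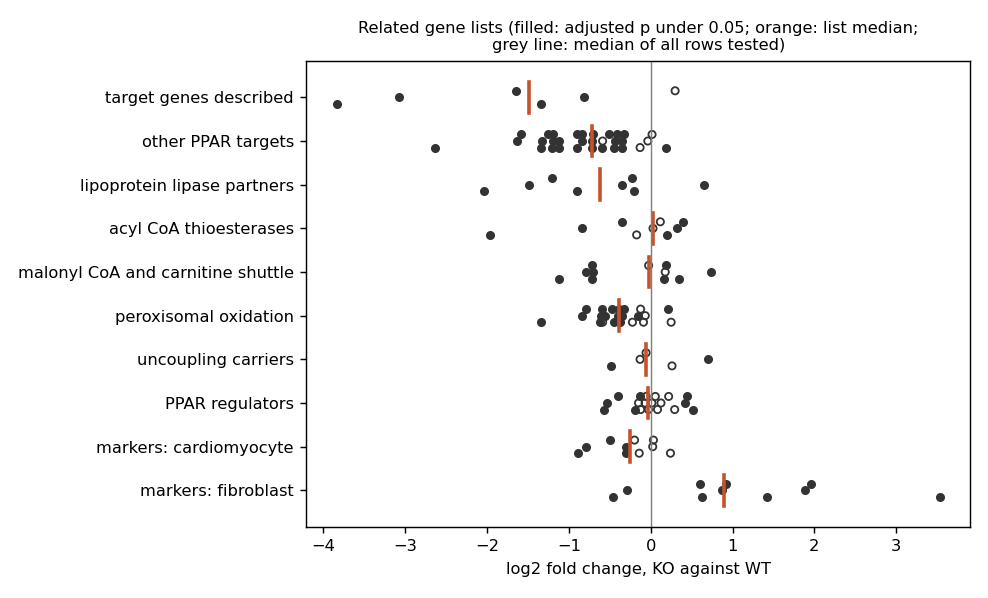
Log2 fold change of KO against WT for each tested gene of the described set and of the related lists, filled where the adjusted p was under 0.05, with the list median in orange and the median of all rows tested as a grey line. The further PPAR targets lie mostly below 0 (median -0.72), the receptors and regulators lie around 0 (median -0.03), and the fibroblast markers lie mostly above it (median 0.90).

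Of the 3 PPAR genes, 1 was higher in KO hearts and none passed the test as lower. Ppara, the main fatty acid receptor of the heart, rose from 24.5 ± 2.81 to 32.6 ± 4.14 CPM (SD, n = 6 each), a log2 fold change of 0.42 (edgeR adjusted p = 0.000884). Ppard and Pparg had log2 fold changes of 0.06 and 0.29 and did not pass (edgeR adjusted p = 0.444 and 0.0544), and the coactivator gene Ppargc1a had -0.03 (edgeR adjusted p = 0.891). The partner receptors Rxra and Rxrb fell by 0.57 and 0.40, as did the coactivator Ncoa2 by 0.53. The muscle regulator Perm1 rose by 0.51. In all, 3 of the 19 regulators tested were higher and 5 were lower. Receptor protein, ligand and binding were not measured here.

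Markers of the cell types of the heart were read beside the 5 genes that fell. Of all rows tested, 25.6% were higher and 25.5% lower, and several of the marker counts below are near these shares. Between WT and KO, the summed levels of fibroblast markers and of smooth muscle and pericyte markers did not overlap. Those of cardiomyocyte, endothelial, macrophage and lymphocyte markers did. Of 10 cardiomyocyte markers 0 were higher and 5 lower (median -0.25), with a summed level of 63883 to 69595 CPM in WT and 53461 to 73435 in KO, and the most negative of them, Tnni3, had a log2 fold change of -0.89. Of 10 fibroblast markers 8 were higher and 2 lower (median 0.90), with sums of 3068 to 3638 CPM in WT and 4099 to 6334 in KO. Of 10 endothelial markers 6 were higher and 1 was lower (sums 3165 to 3613 and 3218 to 3834 CPM), of 8 smooth muscle and pericyte markers 3 were higher and 2 lower (3095 to 3392 and 3553 to 4715 CPM), and of 10 macrophage markers tested 1 was higher and 2 were lower (269 to 373 and 272 to 438 CPM), with Itgam at 0 in all libraries. Lymphocyte markers summed to under 9 CPM in every library, with 1 of 8 higher. Their part in the results was not tested.

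Fat tissue was nearly absent from the libraries by its defining markers. Adipoq had at most 11 reads in a library, Plin1 and Cidec at most 7, Lep at most 1, Retn at most 2, Pck1 at most 22 and Cfd at most 24, and of the 8 white adipocyte markers the glucose transporter gene Slc2a4, which muscle also uses, was the only one tested. The brown fat markers Ucp1 and Elovl3 had at most 1 read, while 2 of the other 3 were higher and 1 was lower. Of the skeletal muscle markers 3 of 8 were tested and 2 were lower, with sums of 2.54 to 8.08 CPM in WT and 1.16 to 3.64 in KO.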

How the data were processed

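Ventricular wall mRNA of 6 WT and 6 KO libraries was analysed. The authors counted reads per gene with HTSeq and deposited raw counts, with the FPKM values (per gene length and library size) of each library. HISAT2 2.0.5 and the build mm10 are named in the submitters' processing notes, whereas the row identifiers and coordinates are those of the C57BL/6NJ assembly. The FPKM length was equal to the table's gene length in 28.7% of rows examined and shorter otherwise. The group mean signals, log2 fold changes and p-values of the authors' own DESeq comparison, also deposited, were not used.

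Counts were fitted in R 4.3.3 with edgeR 4.0.16 (filterByExpr, TMM, robust quasi-likelihood test, Benjamini-Hochberg adjustment over 17155 rows). CPM are counts scaled to library size by TMM, on which means and SDs were taken, and correlations used log2 CPM with a prior count of 2. Exact permutation tests used all 924 splits, and correlation tests 100000 resamples within genotype. A row was called at an adjusted p under 0.05. On simulated counts for this comparison (17036 rows, 200 changed by a log2 fold change of 1) edgeR recovered 200 of 200 with 12 false calls. The simulation gave all rows the same dispersion and changed only rows with higher counts, far fewer than were called here. It therefore checks that the procedure runs properly, not how well it finds changes in these data.

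The genes and lists were chosen with earlier results of these data known. Named beside the described genes were a fixed set of partners, the 3 genes of each list with the smallest p in each direction, and the 3 rows that varied most like each gene, of which some are not reported here. The planned ratio and sum of Acot1 and Acot2 could not be computed, for want of a row named Acot2. Alternatives were DESeq2 1.42.0, limma-voom (limma 3.58.1), limma on log2 FPKM, other scalings and filters, a block on the replicate number, and each library left out in turn. Whether reads were counted by strand is not given in the sources used here. Depth limits values of few reads, and intervals on them would cover counting error only.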

Additional observations from a re-analysis of the deposited data

Results flagged for a closer look

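Among the 24 groups of 6 libraries examined for a single library far from the rest, 2 were found, where about 1.2 would be by chance. Mlycd was at 223 CPM in WT replicate 6, against 258 to 266 CPM in the other WT hearts. Ehhadh was at 10.4 CPM in KO replicate 3, against 5.61 to 7.10 CPM in the other KO hearts. Without WT replicate 6 the log2 fold change of Mlycd was -0.86, and without KO replicate 3 that of Ehhadh was -3.22.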

How the results depend on the processing

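None of 151 alternative values over the 6 genes changed direction. Angptl4, Ucp3, Acot1, Mlycd and Ehhadh passed an adjusted p of 0.05 in all their alternatives. When single libraries were left out, the fitted log2 changes lay between -1.46 and -1.19 for Angptl4, 0.21 and 0.39 for Ucp2, -1.98 and -1.48 for Ucp3, -4.03 and -3.72 for Acot1, -0.89 and -0.77 for Mlycd, and -3.22 and -2.99 for Ehhadh. Ucp2 passed under DESeq2 (0.30, adjusted p = 0.0352), without KO replicate 6 (0.39, 0.0024) and, chosen after seeing the data, without KO replicates 3 and 6 together (0.45, 0.000737), so that in these 3 settings 1 gene was called higher in place of 0. With each library left out, the number of all rows called lay between 4087 and 4401 for higher and between 4162 and 4602 for lower, and the number of the 6 genes lower by the stricter pair of thresholds was 3 or 4. Over the other settings, all rows called ranged from 3918 (without unannotated loci) to 4626 (no filter on low counts) for higher. Same-numbered WT and KO libraries did not deviate together (correlations of -0.227 to 0.0815). This does not decide whether the numbers mark pairs, since littermates or hearts handled together need not deviate alike. With a block on the replicate number the log2 fold change was -1.39 for Angptl4, 0.28 for Ucp2 (adjusted p = 0.111), -1.81 for Ucp3, -3.88 for Acot1, -0.83 for Mlycd and -3.06 for Ehhadh, the block called 5 of the 6 genes lower and 0 higher, and over all rows it called 4123 higher and 4110 lower. Summing Acot1 with a row named Acot2 was not run.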
